A study of Mus musculus with 24 samples.

Results

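A set of 10 genes named for a change between Cre and GFP in every genotype, WT included, was described across 24 RNA sequencing libraries of mouse embryonic fibroblasts, the connective tissue cells that grow out when embryos (here of E13.5) are put in culture. The 10 genes are Eml5, Mkrn2, Sucnr1, Tmem130, Htra2, Gm37238, Il9r, Drd3, Zc2hc1b and D030018L15Rik, out of 45706 gene IDs in the deposited count table. They were chosen from the measured difference between Cre and GFP libraries, so that difference is given for them as a description, with no test. Tests are reported only for comparisons that the rule of choice did not name, between genotypes within Cre libraries and within GFP libraries, and for other genes. Those comparisons still use the libraries on which the 10 genes were chosen. How far the choice bears on them was not tested.

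The study set out to compare cells with altered Vhl, altered Rassf1a or both with WT cells. Its 8 groups, each of 3 libraries, are Vhl Cre (knockout per the labels), Vhl GFP (control), Rassf1a Cre and Rassf1a GFP, Vhl/Rassf1a Cre and Vhl/Rassf1a GFP, and WT Cre and WT GFP. The means of delivering Cre or GFP, the construct, the altered exons and the number of embryos and cultures behind the libraries are not in the labels used here. If libraries of a group share a culture, their spread, on which every p-value rests, may be technical only. A difference between genotypes within Cre or within GFP libraries and a difference between the embryos of those genotypes cannot be told apart.

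Cre is a recombinase that cuts out DNA lying between its recognition sites, and GFP, a fluorescent protein without that activity, is the usual control for its delivery. Cre against GFP in WT cells, which have no altered gene per the labels, shows how Cre and GFP libraries differ without an altered gene. Since every group is labelled Cre or GFP, what delivery itself does to a transcript cannot be seen here. Vhl is the substrate-binding part of a ubiquitin ligase that marks hypoxia-inducible factors for degradation, and Rassf1a is a microtubule-binding tumour suppressor.

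Library totals ran between 29.9 and 55.8 M counts. Levels are CPM, counts scaled to library size with TMM factors. The targeted gene Vhl was at 2.53, 2.34 and 2.85 CPM in Vhl Cre libraries, against 25.7, 27.6 and 26.7 CPM in Vhl GFP libraries, and at 23.7 ± 0.863 CPM in WT Cre and 23.3 ± 0.947 CPM in WT GFP libraries (SD, n = 3 each). Counts summed over the gene Rassf1 do not check the Rassf1a label, since they do not separate its isoforms. The 10 fibroblast markers summed to between 39143 and 59540 CPM per library, while of 6 markers of the proximal tubule, the cell type that the series' design note names, 4 stayed below 1 CPM in every library and Lrp2 and Cubn were at 5.11 to 25.4 and 5.90 to 10.6 CPM. Replicate 1 of the Rassf1a GFP group and replicate 2 of the Vhl/Rassf1a GFP group stood apart from their groups, with an SD of 0.269 and 0.312 log2 units between library and group mean over 10529 genes, against 0.0874 to 0.184 in the other libraries. Fitted log2 fold changes of the 10 genes and calls that moved beyond the replicate spread or changed without both are given with and without them.

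In WT cells 7 of the 10 genes were lower in Cre than in GFP libraries and 3 were higher, each with no overlap between the 3 Cre and the 3 GFP values. Of all 16573 genes tested, 6.29% were lower and 8.74% higher without overlap in that comparison. The 7 lower genes are Eml5, Mkrn2, Sucnr1, Tmem130, Htra2, Gm37238 and Il9r, and the 3 higher ones are Drd3, Zc2hc1b and D030018L15Rik. Rassf1a cells and Vhl/Rassf1a cells showed the same split of 7 lower and 3 higher without overlap, where 5.58% and 5.17% of all genes were lower and higher in Rassf1a cells and 19.3% and 19.8% in Vhl/Rassf1a cells. In Vhl cells 4 of the 7 stayed lower without overlap (Eml5, Mkrn2, Sucnr1 and Gm37238) and the 3 were again higher, beside 27.5% and 25.2% of all genes.

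The set's name therefore did not hold for every gene: Tmem130 and Htra2 were at overlapping levels in Vhl Cre and Vhl GFP libraries, as was Il9r, which had few counts. Over all genes, 28 passed the threshold without overlap and with 1 sign in all 4 genotypes, 17 higher and 11 lower, which is 0.169% of the genes tested. That 7 of the 10 genes are among them follows from how they were chosen and is no test of them. With at least a 2-fold change in each genotype 9 genes remained, the same 7 and Spata45 and Pclo, which were noticed after their values were seen. All 10 genes passed the filter on low counts, Drd3, Zc2hc1b and D030018L15Rik only through Cre groups and Sucnr1 and Il9r only through GFP groups. Zc2hc1b reached its level in every library of each Cre group, and Drd3 and D030018L15Rik did so only in the Vhl Cre and Vhl/Rassf1a Cre groups.

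**Figure D1:**
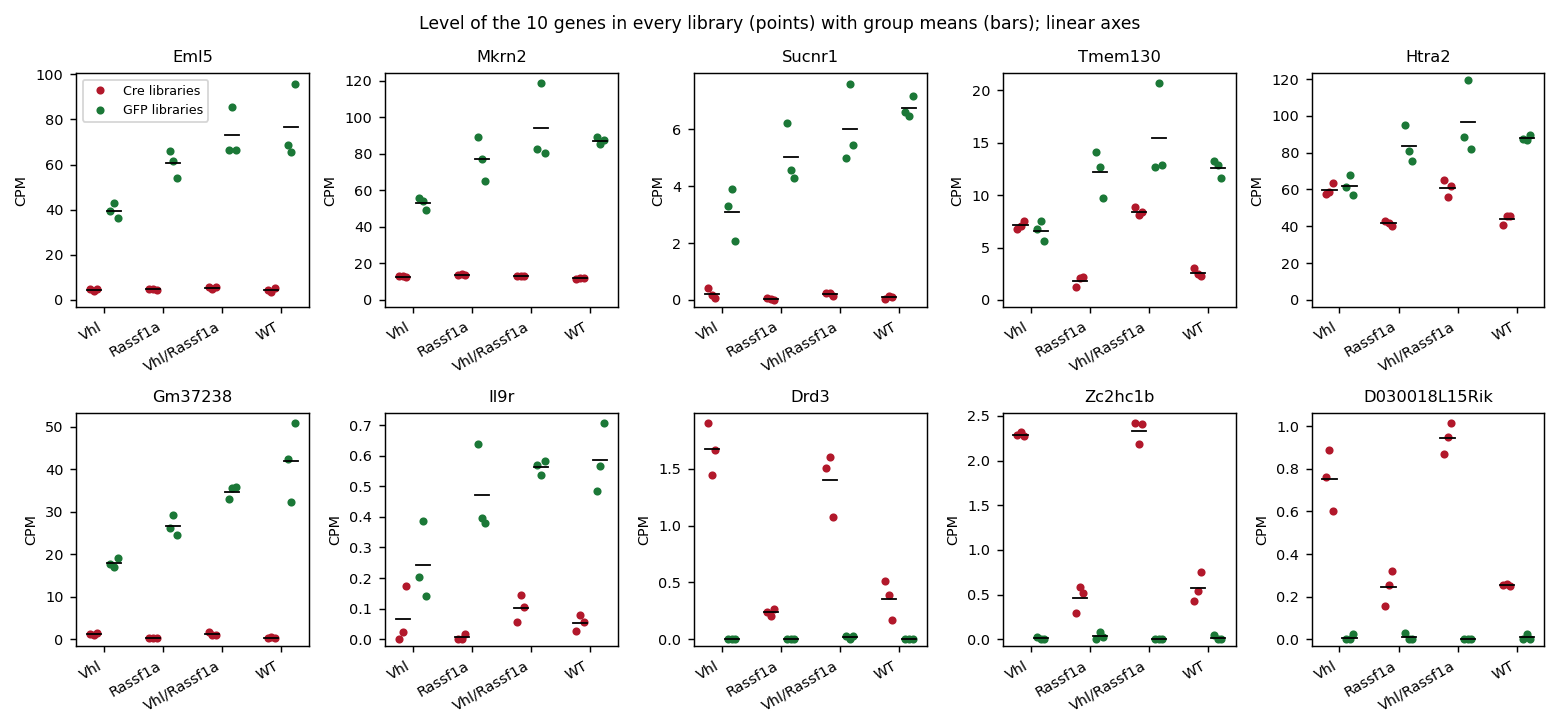
Level of each of the 10 genes in CPM on a linear vertical axis, with 1 point per library (red for Cre, green for GFP), black bars for the mean of 3 libraries and the 4 genotypes along the horizontal axis. Cre points lie under GFP points for Eml5, Mkrn2, Sucnr1 and Gm37238 in every genotype, lie among them for Tmem130 and Htra2 in Vhl cells, and lie above GFP points near 0 for Drd3, Zc2hc1b and D030018L15Rik.

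The start regions of 4 genes are shown because their transcripts moved in opposite directions, Eml5 and Sucnr1 being lower with Cre and Drd3 and Zc2hc1b higher. Each is the window of 250 bases before to 50 after the start annotated by RefSeq on GRCm38.p6, 5′ to 3′ on the gene's strand. They lie at chr12:98901435-98901734 (minus strand), chr3:60081619-60081918 (plus), chr16:43761971-43762270 (plus) and chr10:13177974-13178273 (minus), and capitals mark GCGTG, the one searched motif found in them.
Eml5: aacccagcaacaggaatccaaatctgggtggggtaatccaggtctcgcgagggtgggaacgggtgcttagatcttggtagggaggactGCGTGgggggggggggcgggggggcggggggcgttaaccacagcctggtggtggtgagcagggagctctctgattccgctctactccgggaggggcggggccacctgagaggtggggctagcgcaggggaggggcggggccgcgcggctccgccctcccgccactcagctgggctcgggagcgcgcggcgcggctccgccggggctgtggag
Sucnr1: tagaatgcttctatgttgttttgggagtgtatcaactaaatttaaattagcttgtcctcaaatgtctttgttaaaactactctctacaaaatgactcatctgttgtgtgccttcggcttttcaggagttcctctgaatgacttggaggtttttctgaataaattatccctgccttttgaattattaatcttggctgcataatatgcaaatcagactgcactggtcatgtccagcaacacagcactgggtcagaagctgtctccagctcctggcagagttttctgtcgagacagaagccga
Drd3: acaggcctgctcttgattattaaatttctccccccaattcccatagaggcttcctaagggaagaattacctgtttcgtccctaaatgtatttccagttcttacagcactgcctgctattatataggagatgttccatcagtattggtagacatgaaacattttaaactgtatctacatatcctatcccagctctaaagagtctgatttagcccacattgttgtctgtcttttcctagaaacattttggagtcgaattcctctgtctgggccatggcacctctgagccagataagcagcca
Zc2hc1b: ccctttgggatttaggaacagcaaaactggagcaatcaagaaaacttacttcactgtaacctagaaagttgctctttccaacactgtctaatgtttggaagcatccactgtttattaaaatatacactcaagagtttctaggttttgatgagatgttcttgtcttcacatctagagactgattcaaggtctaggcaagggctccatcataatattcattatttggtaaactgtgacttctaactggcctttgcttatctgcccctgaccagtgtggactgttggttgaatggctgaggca
Motifs were searched on both strands in the 6 windows at hand, these 4 and those of Tmem130 and Il9r. GCGTG, a form of the core to which hypoxia-inducible factors bind, occurred on either strand 1 time in the windows of Eml5 and Il9r and 2 times in that of Tmem130, and 32.4% of 32851 promoters of the same length held it. ACGTG, the other form of that core, was in none of the 6 windows, beside 19.6% of all promoters. The longer motif CACGTG, which contains it, was in none either, beside 7.15% of all. TATAAA, the letters of the TATA box, was in none, beside 13.6% of all. These are matches of letters, not sites.

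Among the genes lower with Cre, Eml5 encodes a member of the EML family, proteins that bind microtubules. It lies on chromosome 12 (GRCm38, 98786805 to 98901484, minus strand; 45 exon blocks). Its level was 4.34, 3.69 and 5.13 CPM in WT Cre libraries, against 68.8, 65.8 and 95.9 CPM in WT GFP libraries. In Vhl cells it was 5.02, 3.88 and 4.75 CPM in Vhl Cre libraries, against 39.4, 42.8 and 36.5 CPM in Vhl GFP libraries. No Cre value came near a GFP value in either genotype, and the GFP level in Vhl cells was below every GFP value in WT cells. Rassf1a cells had 4.73 ± 0.328 CPM in Rassf1a Cre libraries and 60.6 ± 5.98 CPM in Rassf1a GFP libraries, and Vhl/Rassf1a cells 5.42 ± 0.397 CPM in Vhl/Rassf1a Cre libraries and 73.0 ± 10.9 CPM in Vhl/Rassf1a GFP libraries (SD, n = 3 each). The log2 fold change of Cre over GFP was -3.12 (SE 0.15) in Vhl, -3.68 (SE 0.15) in Rassf1a, -3.74 (SE 0.15) in Vhl/Rassf1a and -4.13 (SE 0.15) in WT cells. The Cre level varied little between genotypes, with group means between 4.39 and 5.42 CPM, so most of the variation between genotypes lay in the GFP libraries.

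Mkrn2, a RING finger ubiquitin ligase with zinc fingers that bind RNA, lies on chromosome 6 (115601902 to 115622624, plus strand), 1.97 Mb from Vhl. It was at 11.7, 12.3 and 12.1 CPM in WT Cre libraries, against 88.9, 85.1 and 87.6 CPM in WT GFP libraries. Vhl cells had 13.0, 13.1 and 12.3 CPM in Vhl Cre libraries, against 55.8, 54.4 and 49.3 CPM in Vhl GFP libraries. The Cre values of the 2 genotypes span 11.7 to 13.1 CPM and the GFP values lie far above them, those of Vhl cells under those of WT cells. In Vhl/Rassf1a GFP libraries the values were 82.7, 119 and 80.7 CPM, replicate 2, which stood apart, being the highest, against 12.9, 13.3 and 13.4 CPM in Vhl/Rassf1a Cre libraries. Rassf1a cells had 13.8 ± 0.224 CPM in Rassf1a Cre libraries and 77.3 ± 12.0 CPM in Rassf1a GFP libraries. Cre over GFP, the log2 fold change of Mkrn2 was -2.05 (SE 0.12) in Vhl, -2.48 (SE 0.12) in Rassf1a, -2.84 (SE 0.12) in Vhl/Rassf1a and -2.86 (SE 0.12) in WT cells. Without both libraries that stood apart it was -2.63 in Vhl/Rassf1a cells.

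The receptors Sucnr1 and Il9r had few counts in Cre libraries. Sucnr1, the G protein-coupled receptor for succinate (chromosome 3, 60081869 to 60087566, plus strand), had 1, 5 and 4 counts in WT Cre libraries, against 287, 240 and 213 counts in WT GFP libraries. Vhl Cre libraries had 16, 8 and 3 counts, against 114, 151 and 88 in Vhl GFP libraries. The transcript was thus counted in every GFP library and close to absent from Cre libraries of both genotypes. As levels, Sucnr1 averaged 0.226 ± 0.163 CPM in Vhl Cre libraries and 3.09 ± 0.938 CPM in Vhl GFP libraries, 0.0434 ± 0.0400 CPM in Rassf1a Cre libraries and 5.02 ± 1.05 CPM in Rassf1a GFP libraries, 0.208 ± 0.0524 CPM in Vhl/Rassf1a Cre libraries and 6.02 ± 1.38 CPM in Vhl/Rassf1a GFP libraries, and 0.0900 ± 0.0540 CPM in WT Cre libraries and 6.75 ± 0.362 CPM in WT GFP libraries. For Sucnr1 the log2 fold change was -3.72 (SE 0.36) in Vhl, -6.94 (SE 0.45) in Rassf1a, -4.85 (SE 0.33) in Vhl/Rassf1a and -6.16 (SE 0.40) in WT cells. With so few Cre counts single libraries moved it, to -4.41 in Vhl cells without Vhl Cre replicate 1, and in Rassf1a cells to -7.69 without Rassf1a Cre replicate 1 and -6.20 without Rassf1a Cre replicate 3.

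Il9r, the ligand-binding chain of the interleukin-9 receptor, which acts with the common gamma chain (chromosome 11, 32187541 to 32200279, minus strand), had 1, 3 and 2 counts in WT Cre libraries, against 21, 21 and 21 in WT GFP libraries. In Vhl cells the counts were 0, 1 and 6 in Cre libraries, against 7, 15 and 6 in GFP libraries. The WT groups stood apart, while the highest Vhl Cre value, 0.173 CPM, exceeded the lowest Vhl GFP value, 0.141 CPM. Rassf1a Cre libraries held 1 count in all, against 22, 15 and 16 counts in Rassf1a GFP libraries, a ratio of levels of 0.0162 (95% interval 0.000402 to 0.0942), the interval covering counting error only. Vhl/Rassf1a Cre libraries had 3, 5 and 5 counts, against 19, 23 and 21 in Vhl/Rassf1a GFP libraries. On the log2 scale Cre over GFP was -1.95 (SE 0.64) in Vhl, -2.5 (SE 0.48) in Vhl/Rassf1a and -3.32 (SE 0.57) in WT cells. The value in Vhl cells was -4.00 without Vhl Cre replicate 3 and -1.38 without Vhl Cre replicate 1.

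Tmem130, a membrane protein (chromosome 5, 144735915 to 144761818, minus strand), was at 3.08, 2.5 and 2.26 CPM in WT Cre libraries, against 13.2, 12.9 and 11.7 CPM in WT GFP libraries. Rassf1a cells had 1.21, 2.13 and 2.15 CPM in Rassf1a Cre libraries, against 14.1, 12.7 and 9.70 CPM in Rassf1a GFP libraries. In both genotypes every Cre value was under every GFP value. In Vhl cells the levels were 6.74, 7.01 and 7.56 CPM in Vhl Cre libraries, against 6.73, 7.54 and 5.58 CPM in Vhl GFP libraries, which overlap, the GFP level being under that of WT GFP libraries and the Cre level above that of WT Cre libraries. Vhl/Rassf1a cells had 8.84, 8.07 and 8.36 CPM in Vhl/Rassf1a Cre libraries, against 12.7, 20.7 and 12.9 CPM in Vhl/Rassf1a GFP libraries, replicate 2 of the GFP libraries being the one that stood apart. This gave a log2 fold change, Cre over GFP, of 0.10 (SE 0.18) in Vhl, -2.71 (SE 0.20) in Rassf1a, -0.88 (SE 0.17) in Vhl/Rassf1a and -2.27 (SE 0.20) in WT cells. For Vhl/Rassf1a cells it was -0.60 without both libraries that stood apart.

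Htra2, a serine protease of the mitochondrial intermembrane space that binds inhibitor of apoptosis proteins once released (chromosome 6, 83051266 to 83055273, minus strand, 30.6 Mb from Vhl), had the smallest change of the set in WT cells. Its level was 40.7, 45.9 and 45.9 CPM in WT Cre libraries, against 87.5, 86.7 and 89.8 CPM in WT GFP libraries. In Vhl cells it was 57.4, 58.5 and 63.6 CPM in Vhl Cre libraries, against 61.6, 67.6 and 57.1 CPM in Vhl GFP libraries. The WT groups did not overlap, whereas the Vhl groups did. Rassf1a cells had 41.8 ± 1.26 CPM in Rassf1a Cre libraries and 83.7 ± 10.2 CPM in Rassf1a GFP libraries, and Vhl/Rassf1a cells 61.0 ± 4.54 CPM in Vhl/Rassf1a Cre libraries and 96.6 ± 19.9 CPM in Vhl/Rassf1a GFP libraries. The log2 fold change was -0.05 (SE 0.10) in Vhl, -1.0 (SE 0.11) in Rassf1a, -0.66 (SE 0.10) in Vhl/Rassf1a and -0.99 (SE 0.11) in WT cells, and in Vhl/Rassf1a cells -0.48 without both libraries that stood apart. Whether the changes of Htra2, Tmem130 or any other of the 10 genes differ between genotypes was not tested, since the genes were chosen on those changes.

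Gm37238 is a transcript of 1 exon that GENCODE lists without a function, in the class TEC (chromosome 13, 48542644 to 48545033, minus strand). It had 14, 17 and 13 counts in WT Cre libraries, against 1844, 1196 and 1513 in WT GFP libraries. Vhl Cre libraries had 46, 42 and 50 counts, against 613, 663 and 812 in Vhl GFP libraries. Cre and GFP counts lay closer together in Vhl cells, whose Cre counts were all above, and GFP counts all below, those of WT cells. Its level averaged 0.278 ± 0.0741 CPM in Rassf1a Cre libraries and 26.6 ± 2.36 CPM in Rassf1a GFP libraries, and 1.21 ± 0.426 CPM in Vhl/Rassf1a Cre libraries and 34.8 ± 1.55 CPM in Vhl/Rassf1a GFP libraries (SD, n = 3 each). Its log2 fold change was -3.92 (SE 0.18) in Vhl, -6.60 (SE 0.22) in Rassf1a, -4.80 (SE 0.18) in Vhl/Rassf1a and -6.69 (SE 0.21) in WT cells.

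The 3 genes higher with Cre were near 0 in GFP libraries, with at most 3 counts in any. Drd3, a dopamine receptor of neurons that couples to inhibitory G proteins (chromosome 16, 43754026 to 43822932, plus strand), had 75, 62 and 58 counts in Vhl Cre libraries, 9, 8 and 15 in Rassf1a Cre, 80, 56 and 51 in Vhl/Rassf1a Cre and 18, 15 and 6 in WT Cre libraries. It had no count in any Vhl GFP, Rassf1a GFP or WT GFP library and 1, 0 and 1 in Vhl/Rassf1a GFP libraries. Every Cre library thus held the transcript and 10 of 12 GFP libraries held none. With 3 counts over a group as the limit that a count of 0 allows, Drd3 was at least 64.3-fold higher with Cre in Vhl cells, at least 9.15-fold higher in Rassf1a cells and at least 13.1-fold higher in WT cells. In Vhl/Rassf1a cells the ratio of levels was 77.8 (95% interval 21.2 to 647). The fitted log2 fold change there was 6.05 (SE 0.52), and 5.45 without both libraries that stood apart. The RefSeq start whose window is printed above lies inside the GENCODE gene, which begins further upstream.

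Zc2hc1b, a zinc finger protein of the C2HC type (chromosome 10, 13149540 to 13178023, minus strand), had 90, 99 and 79 counts in Vhl Cre libraries, against 1, 0 and 0 in Vhl GFP libraries. In WT cells it had 15, 21 and 27 counts with Cre, against 2, 0 and 0 with GFP. Cre and GFP counts lay apart in both, and Cre counts in Vhl cells lay above those in WT cells. Rassf1a Cre libraries had 11, 23 and 29 counts, against 0, 3 and 1 in Rassf1a GFP libraries, and Vhl/Rassf1a Cre libraries 128, 76 and 114, against none in Vhl/Rassf1a GFP libraries. The ratio of levels, Cre over GFP, was 265 (95% interval 47.2 to 10515) in Vhl and 31.8 (95% interval 8.43 to 268) in WT cells, and the level was at least 88.2-fold higher in Vhl/Rassf1a cells. In Rassf1a cells, with 4 GFP counts in all, the log2 fold change was 3.63 (SE 0.56), and it was 4.87 without Rassf1a GFP replicate 2, which holds 3 of the 4, and 3.16 without both libraries that stood apart.

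D030018L15Rik is a long intergenic noncoding RNA (chromosome 15, 96051603 to 96079553, minus strand). It had 30, 38 and 21 counts in Vhl Cre libraries, 6, 10 and 18 in Rassf1a Cre, 46, 33 and 48 in Vhl/Rassf1a Cre and 9, 10 and 9 in WT Cre libraries. The GFP groups of Vhl, Rassf1a and WT cells held 1 count each over their 3 libraries and that of Vhl/Rassf1a cells none. As for Drd3 and Zc2hc1b, Cre counts were highest in Vhl and Vhl/Rassf1a cells. The ratio of levels was 88.1 (95% interval 15.4 to 3518) in Vhl, 29.2 (95% interval 4.89 to 1186) in Rassf1a and 28.2 (95% interval 4.67 to 1154) in WT cells, with a bound of at least 35.2-fold higher in Vhl/Rassf1a cells. The 1 count of the Rassf1a GFP group lay in replicate 1, which stood apart. In Rassf1a cells the fitted log2 fold change was 4.42 (SE 0.71), and 6.34 without both libraries that stood apart, which leaves no GFP count.

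Genotypes were then compared within GFP libraries, the controls per the labels. In Vhl GFP libraries all 7 genes that were higher with GFP fell relative to WT GFP libraries, with no overlap, while the other 3, at 3 counts or fewer per library, could not be compared. Over all genes tested, 14.9% fell in that comparison. Gm37238 averaged 18.0 ± 0.973 CPM in Vhl GFP libraries and 41.9 ± 9.31 CPM in WT GFP libraries (log2 fold change -1.22, SE 0.13, adjusted p = 2.26e-07 in edgeR's quasi-likelihood test). Eml5 (log2 fold change -0.95, SE 0.13, adjusted p = 2.99e-06) and Sucnr1 (log2 fold change -1.13, SE 0.23, adjusted p = 0.000423) also fell to about the same degree. Tmem130 (log2 fold change -0.93, SE 0.18, adjusted p = 0.000297) and Mkrn2 (log2 fold change -0.71, SE 0.11, adjusted p = 1.77e-05) followed, and Htra2 fell least, to 62.1 ± 5.26 CPM in Vhl GFP libraries, against 88.0 ± 1.64 CPM in WT GFP libraries (log2 fold change -0.50, SE 0.10, adjusted p = 0.000667). Il9r fell by 1.24 on the log2 scale (SE 0.42, adjusted p = 0.0264, quasi-likelihood test), though only 1 of the 3 Vhl GFP libraries reached the level of the filter on low counts, 0.26 CPM, against 3 of 3 in each other GFP group. Its call was lost in edgeR without WT GFP replicate 2 (adjusted p = 0.0535), WT GFP replicate 3 (adjusted p = 0.0847), Vhl GFP replicate 1 (adjusted p = 0.0766) or Vhl GFP replicate 3 (adjusted p = 0.131). In bulk RNA, fewer cells that carry a transcript and less of it per cell cannot be told apart.

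In Rassf1a GFP libraries, Gm37238 alone of the 10 genes passed the threshold, beside 6.68% of all genes that fell. Drd3, Zc2hc1b and D030018L15Rik, again with few or no counts, could not be compared. It was at 26.1, 29.2 and 24.6 CPM in Rassf1a GFP libraries, against 42.5, 32.3 and 50.8 CPM in WT GFP libraries, without overlap (log2 fold change -0.65, SE 0.13, adjusted p = 0.000951 in edgeR). Eml5 had a log2 difference of -0.34 (SE 0.12) with an adjusted p of 0.0659, and Sucnr1 one of -0.43 (SE 0.22) with an adjusted p of 0.203 in the same test. Rassf1a GFP replicate 1, one of the libraries that stood apart, was the highest of its group for Eml5, Mkrn2, Sucnr1, Tmem130, Htra2 and Il9r. With it and replicate 2 of Vhl/Rassf1a GFP left out, 4 genes passed in edgeR: Gm37238, Eml5 (-0.42, adjusted p = 0.00615), Mkrn2 (-0.30, adjusted p = 0.000179) and Sucnr1 (-0.62, adjusted p = 0.0255). Without Rassf1a GFP replicate 1 alone, or without WT GFP replicate 2, Gm37238 and Eml5 passed, Eml5 with an adjusted p of 0.0431 and 0.0273 in edgeR.

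In Vhl/Rassf1a GFP libraries none of the 10 genes passed the threshold in edgeR, none had an unadjusted p under 0.05 and DESeq2 called none, where 11.5% of all genes passed. Here too Drd3, Zc2hc1b and D030018L15Rik had too few counts to be compared. Gm37238 was at 33.0, 35.5 and 35.8 CPM in Vhl/Rassf1a GFP libraries, against 42.5, 32.3 and 50.8 CPM in WT GFP libraries, which overlap (log2 fold change -0.26, SE 0.13, adjusted p = 0.224 in edgeR). Without WT GFP replicate 2, its difference of -0.42 passed (adjusted p = 0.0316 in edgeR). For Eml5 the difference was -0.07 (SE 0.12) and for Mkrn2 0.11 (SE 0.11), both over overlapping values. The 3 genotypes were all set against the same WT GFP libraries.

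**Figure D2:**
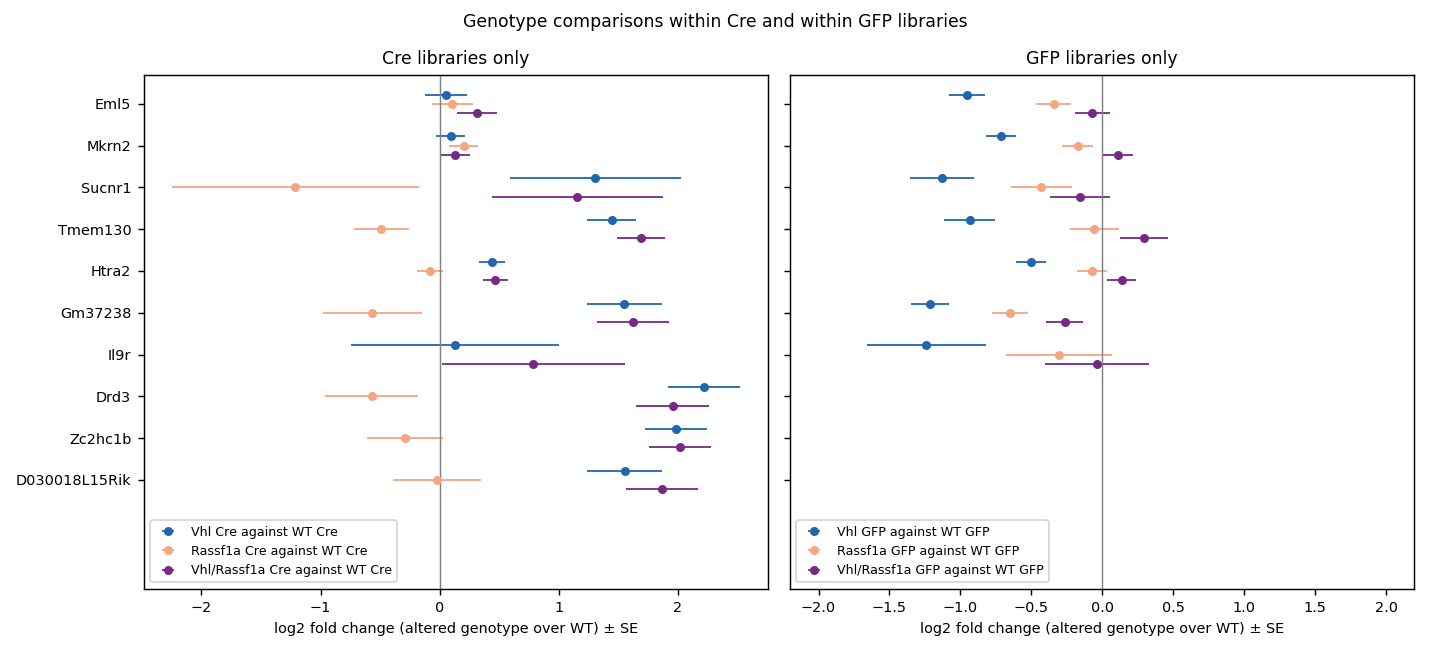
Log2 fold change of each altered genotype over WT (horizontal axis, points with ± SE) for each gene (rows), within Cre libraries on the left and within GFP libraries on the right; a gene is drawn where both groups had more than 3 counts. In Cre libraries the Vhl and Vhl/Rassf1a points of every gene lie above 0, those of Eml5, Mkrn2, Sucnr1 and Il9r without passing the threshold. Those of Drd3 and D030018L15Rik are drawn as a description. In GFP libraries the Vhl points of all 7 genes lie below 0.

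Within Cre libraries the direction was the other one. Drd3 and D030018L15Rik, which reached the level of the filter in all 3 libraries only of the Vhl Cre and Vhl/Rassf1a Cre groups, are described here without a test. Of the other 8 genes, 4 rose in Vhl Cre relative to WT Cre libraries, each without overlap, beside 22.8% of all genes that rose. They are Zc2hc1b (log2 fold change 1.99, SE 0.26, adjusted p = 2.63e-06), which reached the level of the filter in all 3 WT Cre libraries too, and 3 of the genes lower with Cre, Gm37238 (log2 fold change 1.55, SE 0.31, adjusted p = 0.000321), Tmem130 (log2 fold change 1.44, SE 0.21, adjusted p = 4.29e-06) and Htra2 (log2 fold change 0.44, SE 0.11, adjusted p = 0.00168), all in edgeR. Drd3 averaged 1.67 ± 0.226 CPM in Vhl Cre libraries and 0.357 ± 0.176 CPM in WT Cre libraries. For Zc2hc1b the means were 2.29 ± 0.0226 CPM in Vhl Cre and 0.575 ± 0.164 CPM in WT Cre libraries (SD, n = 3 each). Eml5 and Mkrn2 differed by 0.05 (SE 0.17) and 0.09 (SE 0.12) on the log2 scale, with adjusted p of 0.840 and 0.579 in edgeR. Sucnr1, with 27 counts in Vhl Cre libraries and 10 in WT Cre libraries, had an adjusted p of 0.149 in edgeR, 0.0436 in edgeR without the filter on low counts and 0.0471 in DESeq2. Il9r had 7 counts in Vhl Cre and 6 in WT Cre libraries. Neither Sucnr1 nor Il9r reached the level of the filter in any WT Cre library, so their lack of a call in edgeR says little.

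In Vhl/Rassf1a Cre libraries, set against the same WT Cre libraries, 4 of these 8 genes rose, beside 17.5% of all genes that rose. These were Zc2hc1b (log2 fold change 2.02, SE 0.26, adjusted p = 3.12e-06), Tmem130 (log2 fold change 1.69, SE 0.20, adjusted p = 6.07e-07), Gm37238 (log2 fold change 1.62, SE 0.30, adjusted p = 0.000213) and Htra2 (log2 fold change 0.47, SE 0.11, adjusted p = 0.00138), by edgeR. Tmem130 was at 8.84, 8.07 and 8.36 CPM in Vhl/Rassf1a Cre libraries, against 3.08, 2.5 and 2.26 CPM in WT Cre libraries, far from overlapping. Eml5 had an adjusted p of 0.161 and Sucnr1 one of 0.237 in edgeR. Sucnr1 and Il9r reached the level of the filter in no library of either group, so their lack of a call says little. Eml5 passed as higher without the filter on low counts (adjusted p = 0.0247 in edgeR) and in a fit of only these 2 groups (adjusted p = 0.0415 in edgeR).

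In Rassf1a Cre libraries none of the 10 genes passed the threshold in edgeR, 1 had an unadjusted p under 0.05 and DESeq2 called none, where 12.4% of all genes passed. Among the 10, Drd3, D030018L15Rik, Sucnr1 and Il9r reached the level of the filter in all libraries of neither group, so their lack of a call says little. Sucnr1 and Il9r reached it in no library of either group. Zc2hc1b had 11, 23 and 29 counts in Rassf1a Cre libraries and 15, 21 and 27 in WT Cre libraries, and D030018L15Rik had 6, 10 and 18 in Rassf1a Cre libraries and 9, 10 and 9 in WT Cre libraries, so both overlapped. The log2 difference was -0.29 (SE 0.32) for Zc2hc1b, -0.02 (SE 0.37) for D030018L15Rik, -0.57 (SE 0.39) for Drd3 and -0.08 (SE 0.11) for Htra2. Tmem130 lay lower without overlap at 1.21, 2.13 and 2.15 CPM in Rassf1a Cre libraries, against 3.08, 2.5 and 2.26 CPM in WT Cre libraries (-0.49 (SE 0.23), adjusted p = 0.209 in edgeR).

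Tmem130, Htra2 and Gm37238 thus rose in Vhl Cre libraries and fell in Vhl GFP libraries, each relative to WT libraries of the same kind. These comparisons share no library, but both use libraries on which the genes were chosen. Of all genes tested 237, or 1.43%, did both. Eml5, Mkrn2, Sucnr1 and Il9r fell in Vhl GFP libraries, and of them only Sucnr1 passed in Vhl Cre libraries under an alternative.

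Set on a common scale, as a ratio to the mean of the WT libraries of the same kind, some genes moved together between GFP libraries. With group means taken out of log2 levels, Pearson's r over GFP libraries was 0.948 for Mkrn2 and Htra2, 0.942 for Mkrn2 and Tmem130 and 0.921 for Tmem130 and Htra2. Over Cre libraries the same pairs had -0.235, -0.0822 and -0.265. In GFP libraries Gm37238 had 0.135 with Mkrn2, 0.0436 with Htra2 and -0.0366 with Tmem130. In Vhl/Rassf1a GFP replicates 1, 2 and 3 the ratio was 0.948, 1.36 and 0.925 for Mkrn2, 1.01, 1.35 and 0.932 for Htra2 and 1.01, 1.64 and 1.02 for Tmem130. Replicate 2, the library that stood apart over the whole transcriptome, was the highest for these 3 genes, and its part in their group means was not tested beyond leaving it out. For Gm37238 the ratios were 0.788, 0.849 and 0.856, without such a peak. In Vhl Cre libraries the ratios to WT Cre were 5.33, 4.06 and 4.67 for Drd3, 3.96, 4.02 and 3.95 for Zc2hc1b, 2.91, 2.45 and 3.58 for Gm37238 and 1.30, 1.33 and 1.44 for Htra2, all above 1. Those of Tmem130, D030018L15Rik and Mkrn2 were also above 1. In the same libraries the ratios were 1.14, 0.885 and 1.08 for Eml5, 4.51, 2.08 and 0.959 for Sucnr1 and 0, 0.432 and 3.19 for Il9r.

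**Figure D3:**
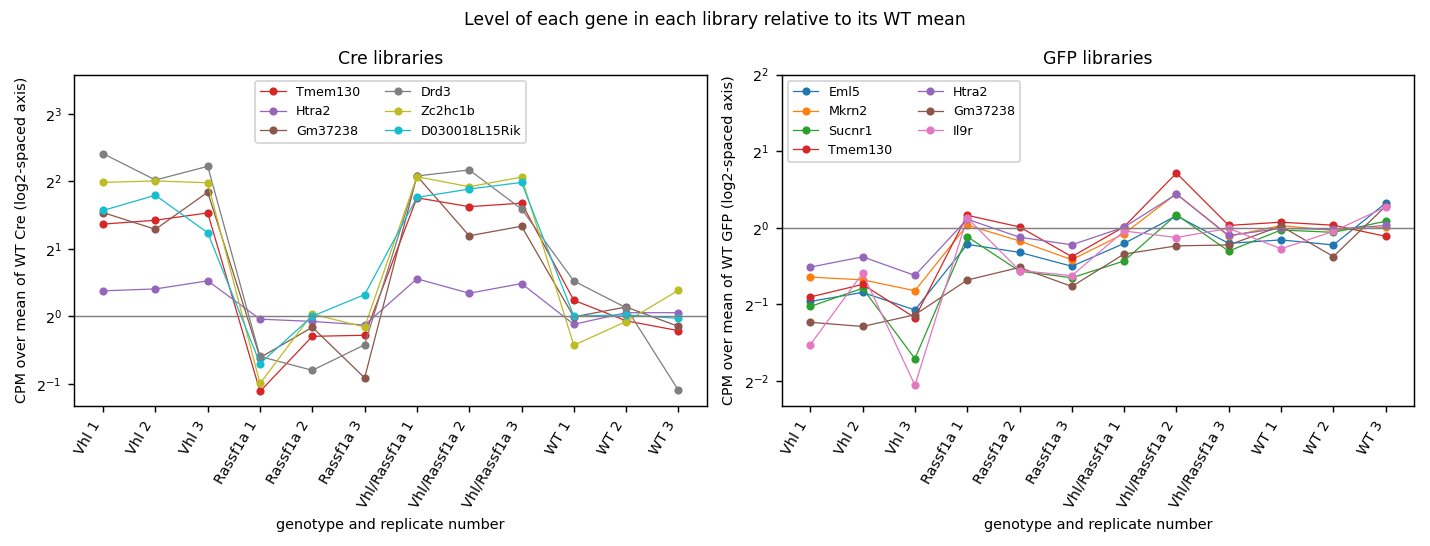
CPM of each gene in each library over the mean of the 3 WT libraries of the same kind, on a log2-spaced vertical axis, with genotype and replicate along the horizontal axis, for 6 genes in Cre libraries (left) and 7 in GFP libraries (right); lines join the libraries of a gene and have no order in time. The 6 Vhl Cre and Vhl/Rassf1a Cre libraries lie above 1 for all 6 genes, and the 3 Vhl GFP libraries lie below 1 for all 7 genes. The left panel leaves out Eml5, Mkrn2, Sucnr1 and Il9r, of which Eml5, Sucnr1 and Il9r had Vhl Cre libraries below 1.

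The genes around the 10 were examined for the same change. For each of the 10, overlapping genes and the 3 nearest tested genes on each side gave 65 genes, 5 of them overlapping. In WT cells 1 of the 65 fell with Cre past the threshold of an adjusted p of 0.05 and none rose (unadjusted p under 0.05 for 3 higher and 6 lower, 0 higher and 1 lower in DESeq2), beside 0.428% of all genes that fell and 0.833% that rose. It was Nptx2, a neuronal pentraxin 178 kb from Tmem130, at 17.0 CPM in WT Cre and 22.4 CPM in WT GFP libraries (log2 fold change -0.39, SE 0.10, adjusted p = 0.0440 in edgeR). In Rassf1a cells none of the 65 passed in edgeR or DESeq2, 3 higher and 1 lower having an unadjusted p under 0.05, beside 0.187% of all genes that rose and 0.205% that fell. In WT cells none changed by 2-fold or more, and their median log2 fold change was 0.00102, beside -0.000367 over all genes. In Vhl cells 10 rose and 17 fell and in Vhl/Rassf1a cells 8 rose and 13 fell, beside 17.4% and 18.7% of all genes in Vhl cells and 14.9% and 14.8% in Vhl/Rassf1a cells. The largest of these was Stc2, which encodes a secreted glycoprotein, 817 kb from Il9r, at 73.8 CPM in Vhl Cre and 11.1 CPM in Vhl GFP libraries (log2 fold change 2.73, SE 0.08), with -0.15 (SE 0.08) in WT cells. Ltv1, which lies 0.117 kb from Zc2hc1b on the same strand, had a log2 fold change of -0.13 (SE 0.05) in Vhl and -0.02 (SE 0.05) in WT cells, where Zc2hc1b was many-fold higher.

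Whether counting kept the strands of reads apart is not given in the sources used here, and without that reads of a gene and of its antisense partner cannot be told apart. Zc3h14, whose exons overlap those of Eml5 by 949 bases on the other strand, had a log2 fold change of 0.04 in Vhl, -0.03 in Rassf1a, 0.01 in Vhl/Rassf1a and 0.05 in WT cells (SE 0.04 each). It did not follow the several-fold change of Eml5. Aup1, which overlaps exons of Htra2 by 753 bases, had -0.02 in WT cells (SE 0.08), and Loxl3, which overlaps them by 535 bases, had -0.06 in WT cells (SE 0.08) but fell in Vhl (-0.43) and Vhl/Rassf1a cells (-0.44). The long noncoding RNA 6720427I07Rik, in an intron of which Gm37238 lies on the same strand, had 0.33 (SE 0.36) in WT cells.

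Annotated transcripts were also compared by their distinct 25-base words. Sucnr1, Drd3 and Zc2hc1b shared no such word with another gene on either strand. Mkrn2 shared the most of the 10 genes, with 56.9% of its words in other genes on either strand and 7.82% on the same strand. Of the words of Htra2 39.1% and of Eml5 10.9% occurred in other genes on either strand, most in the antisense partners Aup1 and Zc3h14, and 0.355% and 1.12% on the same strand. No pair of the 10 genes shared a word except Eml5 and Tmem130, with 9. Whether reads of a delivery vector were counted to any of the 10 genes was not tested, as the construct and the reads were not used here.

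Relatives and partners of the proteins were taken from a list of 46 genes, 39 of them tested. In WT cells none passed the threshold with Cre in edgeR, 5 higher and 1 lower having an unadjusted p under 0.05, and DESeq2 called 1 higher, beside 0.833% of all genes that rose and 0.428% that fell. In Rassf1a cells none passed in edgeR or DESeq2, and 1 higher and 3 lower had an unadjusted p under 0.05, beside 0.187% and 0.205% of all genes. In Vhl cells 7 of the 39 rose and 9 fell, near the 17.4% and 18.7% of all genes. In Vhl/Rassf1a cells 6 rose and 7 fell, beside 14.9% and 14.8% of all genes. The median log2 fold change of the list in WT cells was -0.000306, beside -0.000367 over all genes, and in Vhl cells -0.03, beside -0.01.

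By role, no other EML gene followed Eml5 in WT cells: Eml1, Eml2, Eml3, Eml4 and Eml6 had log2 fold changes between -0.15 and 0.00. Eml4 fell in Vhl cells (-0.58, SE 0.06) and Vhl/Rassf1a cells (-0.42, SE 0.06), as did the kinase gene Nek6 (-0.72 and -0.40, SE 0.05 each). Eml6 fell in Vhl cells (-0.38, SE 0.14) but not in Vhl/Rassf1a cells (0.16, SE 0.14). Mkrn1, the closest makorin tested, rose in Vhl cells to 37.8 CPM in Cre libraries, against 28.7 CPM in GFP libraries (log2 fold change 0.40, SE 0.06), and differed by 0.07 (SE 0.06) in WT cells. The enzymes that make and use succinate, the ligand of Sucnr1, were near 0 in WT cells, with -0.08 (SE 0.06) for Suclg2, a subunit of succinyl-CoA synthetase, and 0.00 (SE 0.03) for Sdha, a subunit of succinate dehydrogenase. In Vhl cells Suclg2 fell by 0.53 (SE 0.06) and Sdha by 0.15 (SE 0.03) on the log2 scale, while Sdhd, another subunit of succinate dehydrogenase, rose in Vhl (0.12, SE 0.04) and Vhl/Rassf1a cells (0.13, SE 0.04).

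Among HtrA proteases Htra3 rose in Vhl cells (log2 fold change 0.80, SE 0.12) and Vhl/Rassf1a cells (1.33, SE 0.12), and in WT cells it had 0.50 (SE 0.13) with an adjusted p of 0.0618 in edgeR. Xiap, the inhibitor of apoptosis protein that Htra2 binds, had -0.06 (SE 0.15) in WT cells. The gene of the ligand Il9 had no count in any library. Il2rg, the common gamma chain that acts with Il9r, was at 0.530 CPM in WT Cre and 0.466 CPM in WT GFP libraries, and had 0.17 (SE 0.27). Of the signalling genes, Jak3 rose (0.58, SE 0.11) and Stat5a fell (-0.74, SE 0.07) in Vhl cells, with 0.00 (SE 0.12) and -0.17 (SE 0.07) in WT cells. Drd4 was the only other dopamine receptor gene with enough counts to test, at 0.437 CPM in WT Cre and 0.292 CPM in WT GFP libraries (0.55, SE 0.42). Zc2hc1a had -0.05 (SE 0.11) in WT cells.

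**Figure D4:**
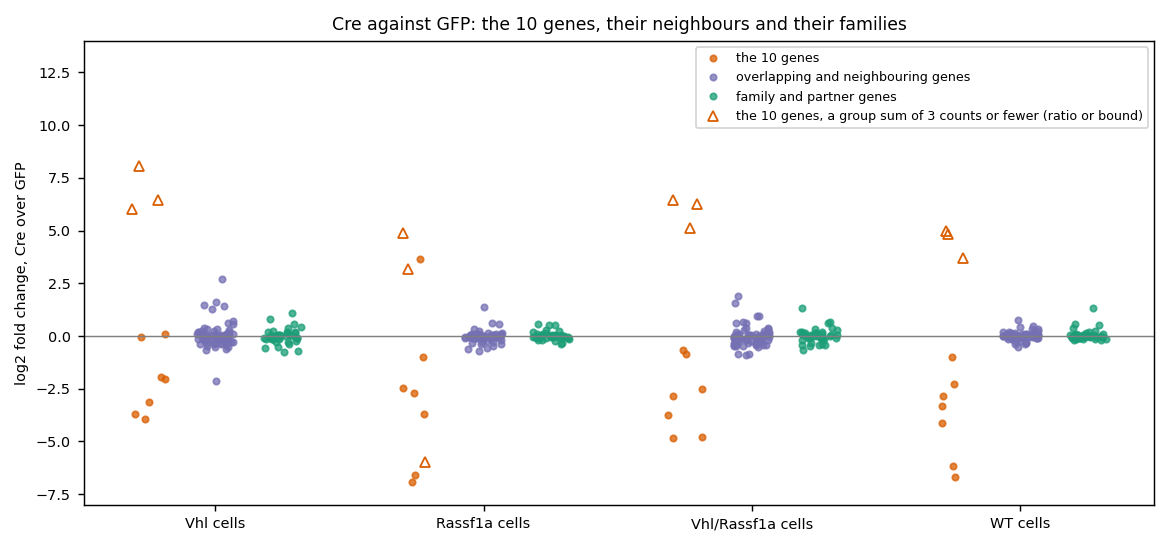
Log2 fold change of Cre over GFP (vertical axis) in each genotype (horizontal axis) for the 10 genes (orange), the 65 overlapping and neighbouring genes (purple) and the tested genes of the family and partner list (green); open triangles are ratios or bounds of genes with a group sum of 3 counts or fewer, and the sideways spread of points has no meaning. In WT cells the purple points stay between -0.50 and 0.78, while orange points reach -6.69 on one side and a ratio of 31.8 on the other.

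Genes whose level over all 24 libraries was most like that of a member were found by Pearson's r of log2(CPM + 0.1) among 12929 genes with a mean of at least 1 CPM. The libraries share the 8 groups, so the values describe the pattern over groups. That pattern includes the difference between Cre and GFP on which the set was chosen. Likeness between genes of the set thus follows in part from the choice and is no test. For Eml5 and Mkrn2 the nearest gene was the other (r = 0.995), followed by Sucnr1 (0.981 and 0.977), and for Sucnr1 and Gm37238 it was also the other (0.985). Il9r was nearest to Gm37238 (0.923) and Eml5 (0.920). For Tmem130 the nearest were Bcas1 (0.979) and Zan (0.961), and for Htra2 Olfr1060-ps1 and Bcas1 (0.956 each). Bcas1 was at 0.828, 1.12 and 1.25 CPM in WT Cre and 5.78, 5.02 and 4.60 CPM in WT GFP libraries, and at 2.74, 3.11 and 3.34 CPM in Vhl Cre and 2.76, 3.33 and 2.06 CPM in Vhl GFP libraries. Like Tmem130 it was thus lower with Cre in WT cells and at overlapping levels in Vhl cells.

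For Drd3 the nearest were Stc1 (0.940) and Loxl2 (0.935), for Zc2hc1b Stc1 (0.950) and Adamts9 (0.921), and for D030018L15Rik Stc1 (0.941) and Syndig1 (0.918). Like Il9r, Drd3, Zc2hc1b and D030018L15Rik averaged under 1 CPM, so they were not among the genes searched and could not match one another. Over the 12 Cre libraries alone r was 0.899 for Drd3 and Zc2hc1b, 0.902 for Drd3 and D030018L15Rik and 0.963 for Zc2hc1b and D030018L15Rik. With group means taken out it was -0.592, -0.0522 and 0.528, so the likeness to Drd3 lay between groups and not between libraries of a group. Stc1, which encodes a secreted glycoprotein hormone, was at 22.9, 22.2 and 25.2 CPM in WT Cre and 16.8, 14.7 and 15.0 CPM in WT GFP libraries, and at 44.5, 43.8 and 41.4 CPM in Vhl Cre and 14.3, 16.0 and 13.1 CPM in Vhl GFP libraries. Its Cre values lay above its GFP values in both genotypes, though its GFP level was well above 0, unlike that of Drd3, Zc2hc1b and D030018L15Rik. Spata45 and Pclo were the genes outside the set that passed with at least a 2-fold change in every genotype. In WT cells the larger change was that of Spata45, at 0.193 ± 0.0553 CPM in WT Cre and 1.71 ± 0.601 CPM in WT GFP libraries (log2 fold change -3.11, SE 0.33). Pclo, which encodes a scaffold protein of the presynapse, was at 0.506 ± 0.228 CPM in WT Cre and 1.15 ± 0.101 CPM in WT GFP libraries (-1.16, SE 0.26), with -1.42, -1.31 and -1.32 in Vhl, Rassf1a and Vhl/Rassf1a cells.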

How the data were processed

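Total RNA of 24 libraries was measured, with groups and replicate numbers taken from the sample titles. The authors deposited raw counts per Ensembl gene. Per the labels' protocols, a NucleoSpin kit gave the RNA and an Illumina TruSeq Stranded kit the libraries. Trimmomatic 0.38, STAR 2.5.2b and GRCm38 are named, per the submitters' processing notes. Which tool, strand setting and annotation produced the counts is not given in the sources used here. Symbols, coordinates and transcripts came from GENCODE M21, which named 45143 of 45706 IDs, and promoter windows from RefSeq on GRCm38.p6, which matched 6 of the 10 genes.

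Genes were kept by filterByExpr of edgeR 4.0.16 (R 4.3.3) on the 8 groups, at its minimum count (10) and minimum total (15), leaving 16573. One quasi-likelihood model (glmQLFit, glmQLFTest) with 1 mean per group and TMM scaling was fitted to all libraries, with 16 residual degrees of freedom, and tested on simulated data. The p-values were two-sided and corrected over all genes tested (Benjamini-Hochberg) within each of 10 comparisons, with a threshold of 0.05. The standard error was the log2 fold change divided by the square root of F. Where a group held 0 counts a bound at 3 counts over the group was computed, and with 1 to 3 counts a ratio with an exact 95% binomial interval, which covers counting error only. Libraries held 29.9 to 55.8 M counts. No 2 libraries of a group agreed within sampling noise (chi-square over degrees of freedom 2.86 to 57.1).

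The 10 genes, the family and partner list, the motifs and the markers were chosen with earlier results of these data known. Named were the 10 genes, Vhl and Rassf1, and the 2 genes most alike by correlation. Of list members and neighbours past the threshold in a Cre against GFP comparison some were named and others were not, and closest paralogues were added. These and other named genes were chosen after their values were seen. Alternatives were DESeq2 size factors, the Wald test of DESeq2 1.42.0, the filter lowered to a total of 1 count, fits restricted to the 2 groups of a comparison, a term for the replicate number (block), and fits without 1 library or without both that stood apart. One overlapping gene is not reported here.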

Additional observations from a re-analysis of the deposited data

How the results depend on the processing

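Of the results on the 10 genes, the 7 that fell in Vhl GFP against WT GFP libraries and the 4 that rose in Vhl Cre and in Vhl/Rassf1a Cre against WT Cre libraries held under each alternative with 1 exception in edgeR, Il9r, so that 6 to 7 fell when single libraries were left out, and no direction reversed. Sucnr1 also rose in Vhl Cre libraries with DESeq2 and without the filter, and Eml5 in Vhl/Rassf1a Cre libraries without the filter and in a fit of only these groups. In Rassf1a GFP against WT GFP libraries the count of 1 became 2 with DESeq2, 3 without the filter and 4 without both libraries that stood apart, and ran between 1 and 2 without single libraries. In Vhl/Rassf1a GFP libraries the count of 0 became 1 without the filter, and ran between 0 and 1 without single libraries. In Rassf1a Cre against WT Cre libraries, 1 gene (Tmem130) fell without the filter, and 1 (Mkrn2) rose in a fit of only these groups and without both libraries that stood apart. The cause of these changes was not tested.

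Over all genes, Cre against GFP passed for 65 in Rassf1a cells, against 103 with DESeq2, 151 without the filter, 12 in a fit of these 2 groups alone, 112 without both libraries that stood apart, and 24 (without Rassf1a GFP replicate 2) to 67 without single libraries; leaving out Rassf1a GFP replicate 1 gave 40, and Rassf1a Cre replicates 1, 2 and 3 gave 31, 29 and 42. In WT cells 209 passed, against 466 without both, and 87 (without WT GFP replicate 1) to 187 without single libraries; leaving out WT GFP replicate 3 gave 108, WT Cre replicate 2 gave 124 and WT Cre replicate 3 gave 103. Fits restricted to 2 groups gave 3008 in place of 4919 for Cre against GFP in Vhl/Rassf1a cells, 1466 in place of 2664 for Rassf1a GFP, 778 in place of 1913 for Vhl/Rassf1a GFP and 3097 in place of 2054 for Rassf1a Cre against WT, the last being 3307 without both libraries and 1409 to 1682 without single libraries.

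Replicate numbers did not pair the libraries: same-numbered libraries had correlations of their deviations between -0.502 and 0.409 over 10529 genes, and in no comparison did every library correlate best with its own number. With a replicate block 189 genes passed for Cre against GFP in WT cells and 62 in Rassf1a cells, and 7 of the 10 genes fell in Vhl GFP libraries, so the block moved no count by over 1.5 times. Depth limits Sucnr1, Il9r, Drd3, Zc2hc1b and D030018L15Rik, whose lower groups hold few or no counts.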
